A study of Mus musculus with 12 samples.

Results

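The 9 genes described here mark hematopoietic stem and progenitor cells (HSPCs) and were taken from the deposited expression table by gene symbol: Kit, Cd34, Mecom, Hlf, Meis1, Procr, Myb, Runx1 and Flt3. All 9 had a row, out of 30743 rows in all. The RNA came from whole livers of male C57BL/6J fetuses harvested at 15 ± 0.5 days post coitum (dpc). In the Control group, 6 fetuses came from dams on a diet with 13.5 kcal% fat, and in the HFD group 6 came from dams on a high-fat diet with 60 kcal% fat. The dams ate either diet for 12 to 14 weeks. The livers were not sorted, so each value mixes every cell type of the organ, and fewer cells of a type cannot be told apart from less RNA per cell.

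What was used here is the average level of each gene over the 12 livers of both diets, as the authors computed it, as log2 CPM, the logarithm of read counts scaled to library size. It is 1 value per gene, with no value for a single liver, so no SD, no test and no diet comparison accompany it, and the reads per liver are unknown. The lowest value in the table was -2.71, which equals 0.152 CPM and was shared by 11091 rows. It was taken as the value of a row without reads, since edgeR adds a small count before the logarithm. The other 19652 rows were taken as rows with reads, and 10171 of them lay above 1 CPM.

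The mid-gestation liver is the main blood-forming organ of the fetus, where HSPCs arrive, expand and differentiate before the bone marrow takes over. KIT and FLT3 are receptor tyrosine kinases through which stem cell factor and FLT3 ligand keep these cells alive and dividing. PROCR, the endothelial protein C receptor, and the sialomucin CD34 are surface proteins used to isolate them. MYB, RUNX1, MEIS1, MECOM and HLF are transcription factors that HSPCs need to arise, renew themselves or hold back differentiation.

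The table gives 1 value per gene, although 6 of the 9 genes have more than 1 transcript in the curated RefSeq set, and the share of sequence that belongs to a single transcript differed widely between them. In GENCODE transcripts linked to curated RefSeq entries, 51 of the 5253 exon bases of Kit (0.971%) stood in exactly 1 of its 2 transcripts. The corresponding shares were 8.12% for Cd34 (212 of 2610 bases), 9.88% for Meis1 (340 of 3441) and 20.6% for Myb (777 of 3772); for Runx1 they were 3725 of 7452 bases, with 3 of its 4 curated transcripts linked. For Flt3, Hlf and Procr the share was 100%, since each has 1 curated transcript. It was also 100% for Mecom, but there only 1 of 5 curated transcripts was linked, so its share is not informative. The coding bases by which the transcripts differ are shown as examples of sequence that belongs to a single transcript, beside noncoding bases that are not shown. Capitals mark bases held by exactly 1 linked transcript and lower case marks neighbouring coding bases shared with another, all read 5′ to 3′ on the gene's strand from the GENCODE M21 transcripts (GRCm38).
Kit, all 12 coding bases at chr5:75639147-75639158, + strand: catttaaagGTAACAACAAAGagcaaatcc
Cd34, all 12 coding bases at chr1:194959780-194959791, + strand: gaaaggctgGAGCTGGAACCT
Meis1, the first 21 of 56 coding bases at chr11:18884027-18884082, - strand: gagcgccagGACCTATGAGTGGAATGGGCA
Myb, the first 21 of 357 coding bases at chr10:21144969-21145325, - strand: atagattctGATTCTTCGTGGTGTGATCTC
Runx1, the last 21 of 58 coding bases at chr16:92825589-92825646, - strand: ATCCACAGTGCTTCATGAGAGatgccagca

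The Kit stretch separates the longer from the shorter form of the receptor just outside the membrane. Apart from these 12 bases, 39 bases at the 5′ end were the only exon sequence of Kit held by 1 linked transcript. The Myb stretch is an internal exon that lengthens the coding sequence, and the Runx1 stretch opens the coding sequence of transcripts from the distal promoter.

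Of the 9 genes, 5 lay above 1 CPM, namely Flt3, Myb, Meis1, Hlf and Cd34. Procr, Runx1, Mecom and Kit lay under 1 CPM, and none of the 9 sat at the lowest value. Among rows with reads, 51.8% lay above 1 CPM, and the median percentile of the members was 49.9 among these rows and 68.0 among all rows of the table. Levels of different genes are set side by side only per length, as CPM per kilobase of all annotated exons. On that scale the 5 members above 1 CPM ran from 1.60 for Flt3 to 0.156 for Cd34.

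**Figure D1:**
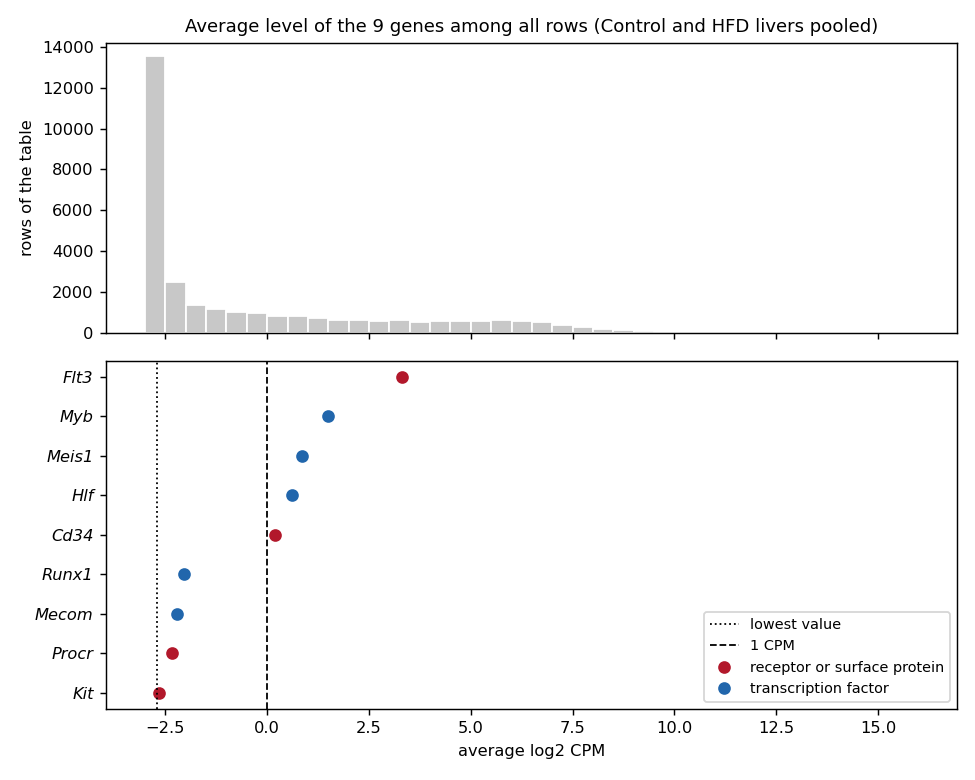
The upper panel counts the rows of the table by average log2 CPM, and the lower panel gives each of the 9 genes as a point on the same axis, coloured by role. The dotted line is the lowest value of -2.71 and the dashed line is 1 CPM, and 5 genes lie to the right of the latter while Kit lies beside the former.

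Among the receptors and surface proteins, 2 of 4 lay above 1 CPM. Flt3 (chr5:147330741-147400489, - strand), which marks multipotent and lymphoid-primed progenitors, had the highest average of the 9 genes at 3.30 log2 CPM, or 9.86 CPM. Per length it reached 1.60 CPM per kilobase, and it stood at percentile 71.7 of the rows with reads. Cd34 (chr1:194938819-194961279, + strand), which is also made by endothelial cells, was listed at 0.19 log2 CPM (1.14 CPM) and 0.156 CPM per kilobase, the middle value of the 9. An antisense gene, Gm16897, overlaps Cd34 and had a row of its own at 0.449 CPM. The kit used does not mark the strand, so reads of the overlap cannot be assigned to either.

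Procr (chr2:155751117-155755471, + strand) and Kit (chr5:75574916-75656722, + strand) were the 2 surface proteins under 1 CPM. Procr, a marker of long-term repopulating cells, was listed at -2.34 log2 CPM, or 0.197 CPM. Kit was listed at -2.66 log2 CPM, or 0.159 CPM, which is 0.00639 CPM above the lowest value. It stood at percentile 4.14 of the rows with reads. KIT is also found on erythroid progenitors and mast cells, and the study used c-Kit as a surface marker to count fetal liver HSPCs by flow cytometry. The listed level does not show that the transcript was absent from the organ.

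Among the transcription factors, 3 of 5 lay above 1 CPM. Myb (chr10:21124935-21160984, - strand), which the definitive blood lineages need to proliferate, led them at 1.51 log2 CPM, or 2.84 CPM and 0.318 CPM per kilobase. Hlf (chr11:90336536-90390895, - strand), a PAR domain factor restricted to the most primitive blood cells but also present in hepatocytes, had 0.62 log2 CPM, or 1.53 CPM and 0.230 CPM per kilobase. Meis1 (chr11:18879817-19018985, - strand), a homeodomain partner of HOX and PBX proteins, had 0.86 log2 CPM, or 1.82 CPM and 0.173 CPM per kilobase. Its average in CPM was above that of Hlf and its level per kilobase below it, because its annotated exons are longer.

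Runx1 and Mecom lay near the lowest value. Runx1 (chr16:92601466-92826149, - strand), the core-binding factor subunit that definitive blood stem cells need to arise, was listed at -2.05 log2 CPM, or 0.241 CPM. Mecom (chr3:29951296-30548008, - strand), which encodes the EVI1 zinc-finger protein, was listed at -2.21 log2 CPM, or 0.216 CPM. Most of each of these values is the lowest value itself, so the order among Procr, Runx1, Mecom and Kit per length mainly follows exon length and is not read here.

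Low values were also found for genes that every cell uses or that mark abundant cells. Actb, which encodes beta-actin, was listed at 2581 CPM, but Gapdh, a glycolytic enzyme, was listed at 5.20 CPM and Ppia, which encodes cyclophilin A, at 0.165 CPM. Alas2, the erythroid enzyme that starts heme synthesis, was listed at 0.704 CPM, beside Hba-a2, an alpha globin, at 49708 CPM. The hepatocyte factor Hnf4a and the endothelial gene Pecam1 sat at the lowest value. Values near the lowest are given here as listed levels and not as absence of expression.

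A list of 70 proteasome, chaperonin, RNA polymerase and other general genes was then divided by transcript structure, a check that was chosen after the levels had been seen. With 1 curated transcript, 47 of 54 lay above 16 CPM (87.0%), against 8 of 16 with 2 or more (50%). Above 1 CPM the counts were 51 of 54 and 12 of 16. By sequence, 53 of 61 whose linked exon bases all stood in exactly 1 transcript lay above 16 CPM, against 1 of 7 where under 50% did. Above 1 CPM the counts were 57 of 61 and 5 of 7. The 61 include genes with 2 curated transcripts of which only 1 was linked, such as Cct5 and Psmd5, whose share is not informative. The proteasome genes Psmd2 (0.267 CPM) and Psmd4 (0.241 CPM), with 4.72% and 5.52% of their bases in exactly 1 transcript, were listed at levels like those of Runx1 and Mecom. Low values occurred with 1 curated transcript as well, as in the proteasome gene Psmc1 (0.286 CPM) and in Ppia. Of the members, 2 of 3 with 1 curated transcript (Flt3 and Hlf, not Procr) and 3 of 6 with 2 or more lay above 1 CPM. Over all protein coding genes the shares were 48.5% with 1 curated transcript and 38.0% to 42.8% in the classes with 2 or more. The part of transcript structure in the members' levels was not tested, and the rule by which reads were assigned to genes is not given in the sources used here.

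**Figure D2:**
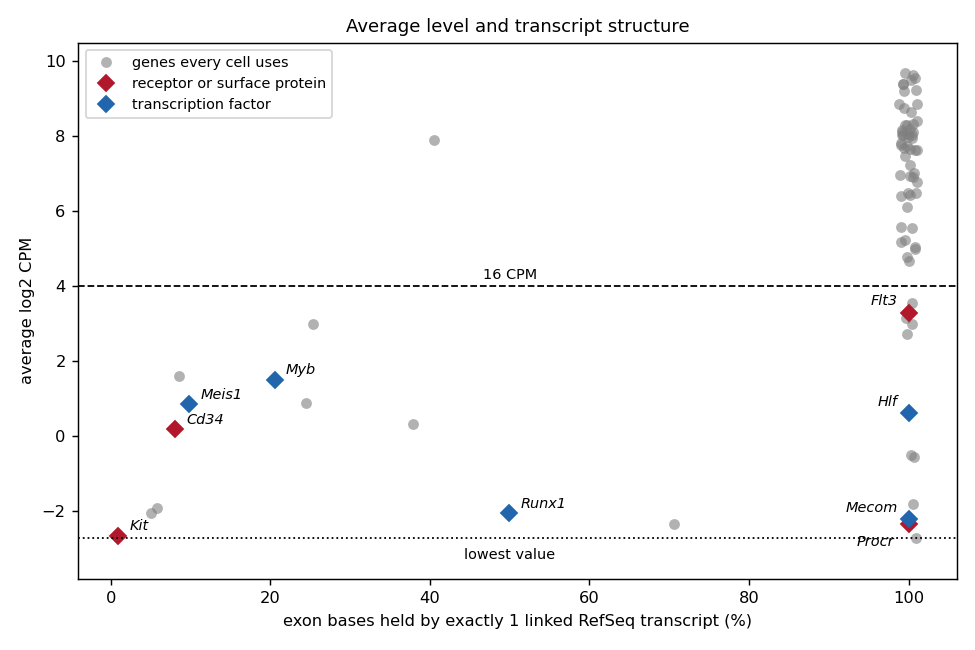
Each point is a gene, with the percentage of its linked exon bases held by exactly 1 transcript on the horizontal axis and its average log2 CPM on the vertical axis. Grey points are general genes, moved sideways at random by up to 1.2 points for display, and diamonds are the 9 members. Kit lies at the lower left with 0.971% and -2.66, while 53 of the 61 general genes at 100% lie above the dashed line of 16 CPM.

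Dividing each level by the bases in exactly 1 transcript instead of by all exons, a scale that was also chosen after the levels had been seen, changed the order of the 5 members above 1 CPM. Cd34 (5.38 CPM per kilobase of such bases) and Meis1 (5.34) then led, followed by Myb (3.65), Flt3 (2.70) and Hlf (0.272), whereas per exon length Flt3 led and Cd34 was the lowest of the 5. The 4 members under 1 CPM are not ordered on this scale, since their values are mostly the lowest value of the table divided by few or many bases. Whether this scale or that of all exons is nearer to the RNA in the liver was not tested.

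Receptors were then set beside their ligands. Flt3 was 3.77-fold above Flt3l, the gene of its ligand, per kilobase (1.60 against 0.424 CPM per kilobase), and was also higher with the longest transcript and the coding sequence as the length. Per kilobase of bases in exactly 1 transcript the order turned, with 16.3 for Flt3l and 2.70 for Flt3. Kitl, which encodes stem cell factor, the ligand of KIT, was listed near the lowest value at 0.203 CPM, as Kit was. Proc, which encodes the protein C zymogen that hepatocytes secrete and PROCR binds, had 1.18 CPM per kilobase, above the 0.0970 of Procr.

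The partners of the transcription factors covered a wide range. Pbx2, one of the TALE partners of MEIS1, had 40.7 CPM per kilobase, 236-fold above Meis1 per exon length and 9.03-fold above it per base in exactly 1 transcript. Pbx3 (0.254 CPM per kilobase) lay 1.47-fold above Meis1 per exon length and below it per coding length and per base in exactly 1 transcript. Hoxa9, the HOX partner, was listed at 0.790 CPM, and its order with Meis1 also changed with the gene length. The coactivator genes Ep300 and Crebbp, through which MYB activates its targets, lay 44.5-fold and 11.7-fold above Myb per exon length, and 5.77-fold and 1.27-fold above it per base in exactly 1 transcript. Cbfb, the gene of the obligate partner of RUNX1, sat at the lowest value. It has 4 curated transcripts, with 1.85% of its bases in exactly 1 of them. Of the corepressor genes whose products bind MECOM, Ctbp1 had 2.22 and Ctbp2 0.270 CPM per kilobase. Among the 11 ligands and partners described, 8 lay above 1 CPM and 3 did not.

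Among the paralogs, at least 1 relative each of Myb, Runx1, Hlf and Cd34 lay above the member per kilobase. Mybl2, the family member of cycling cells, had 43.4 CPM per kilobase, 136-fold above Myb per exon length and 15.1-fold per base in exactly 1 transcript. Mybl1 (0.932) was 2.93-fold above Myb per exon length but below it on the latter scale, with 2.02 against 3.65 CPM per kilobase. Runx3 had 3.15 CPM per kilobase and Runx1 0.0200, whereas Runx2 sat at the lowest value. Podxl, a CD34-family sialomucin that is also found on fetal erythroid cells and HSPCs, had 24.0 CPM per kilobase, 153-fold above Cd34 per exon length, 65.7-fold with the longest transcript and 4.55-fold per base in exactly 1 transcript. Podxl2 was 2.26-fold above Cd34 per exon length but below it on the last of these scales, with 4.97 against 5.38 CPM per kilobase. The PAR domain genes Dbp and Tef lay 2.57-fold and 2.17-fold above Hlf per exon length, and 1.04-fold to 15.4-fold above it over the other 3 lengths, and the related repressor Nfil3 was listed at 0.577 CPM. Prdm16, the paralog of Mecom, was at 0.418 CPM.

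Meis1 had the highest listed level of its family, since Meis2 was at 0.190 CPM and Meis3 at the lowest value. Meis2 has 15 curated transcripts, with 4.81% of its linked bases in exactly 1, and Meis3 has 5, with 8.20%. Whether transcript structure plays a part in this order was not tested. Flt3 likewise stood above the other receptor kinases of its class. Csf1r, the macrophage colony-stimulating factor receptor, was at 0.684 CPM, Pdgfra, a receptor of mesenchymal cells, at 0.443 CPM, and Pdgfrb at the lowest value. In pairs with both genes above 1 CPM, Podxl, Pbx2, Mybl2, Ep300 and Crebbp lay over 10-fold above their members per exon length. Each has 1 curated transcript, as do Flt3 and Hlf. Of the genes above 1 CPM whose member lay under it, Runx3 has 2 curated transcripts, Ctbp2 has 3, Proc has 4 and Ctbp1 has 5. Of the 15 paralogs other than members, 7 lay above 1 CPM.

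**Figure D3:**
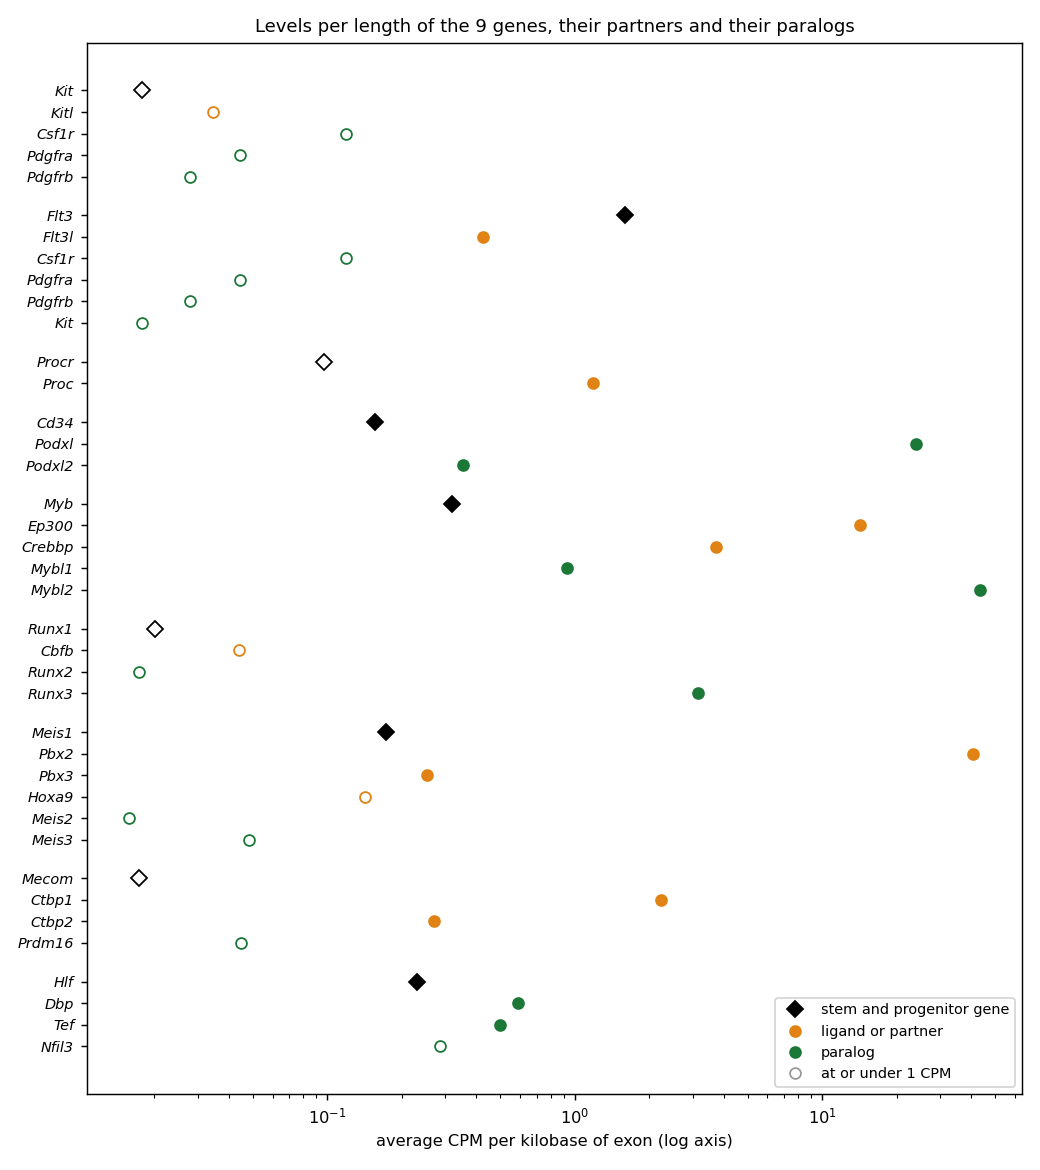
Each block gives 1 of the 9 genes (black diamond) with its ligands or partners (orange) and its paralogs (green), on a logarithmic axis of average CPM per kilobase of exon. Open symbols are genes at or under 1 CPM. Mybl2, Pbx2 and Podxl lie furthest to the right with 43.4, 40.7 and 24.0 CPM per kilobase, and Flt3 is the rightmost of the 9.

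A list of 26 other genes of stem and progenitor cells held 15 above 1 CPM and 11 that were not, 2 of which (Erg and Ly6a) sat at the lowest value. Its median was 0.370 CPM per kilobase, against 0.156 for the 9 members. Lyl1, a basic helix-loop-helix factor of blood stem cells and erythroid progenitors, was highest with 112 CPM per kilobase. Angpt1, a niche ligand, had the least per kilobase (0.0329). At 0.171 CPM it was listed above Erg and Ly6a, and most of its value is the lowest value. Its place per kilobase therefore follows its longer exons and is not read. Of the listed genes with 1 curated transcript, 8 of 9 lay above 1 CPM, and of those with 2 or more, 7 of 17. Over all protein coding genes, 48.5% with 1 curated transcript lay above 1 CPM, and 38.0% to 42.8% in the classes with 2 or more. Of the 26 genes, Hoxa9 and Prdm16 are also partners or paralogs of members and are given above. Ly6a encodes Sca-1, a surface protein by which stem cells are isolated.

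Marker lists of the other cell types place these levels in the organ. The hepatoblast and hepatocyte list had a median of 3153 CPM per kilobase and was led by Alb (27034), with Hnf4a at the lowest value. The erythroid list followed with 151 CPM per kilobase, from Alas2 (0.293) to Slc4a1 (2461), the band 3 anion exchanger. Of its 10 genes, Hba-a1, Hbb-bt and Ahsp were not matched to a row, so its median and its highest gene leave out the globins. The globin genes Hba-a2 and Hbb-b1, which were not on the list, stood at 49708 and 24904 CPM, above Slc4a1 at 12037 CPM. The granulocyte and monocyte list had a median of 78.7 CPM per kilobase, led by S100a8 (688), with Ly6c2 lowest (10.6).

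The stellate and mesenchymal list (2.95 CPM per kilobase, led by Col1a1 with 71.4, with Pdgfrb lowest), the cholangiocyte list (1.79, from Sox9 with 0.716 to Krt19 with 3.28), the megakaryocyte list (0.916, from Vwf with 0.196 to Pf4 with 208) and the macrophage list (0.834, led by C1qb with 134) also had medians above that of the members. Adgre1, the gene of F4/80 on macrophages, was listed under its older symbol Emr1, at the lowest value. The medians of 2 lists of cells that share markers with HSPCs depended on genes at the lowest value. The endothelial list, relevant to Cd34 and Procr, had 0.256 CPM per kilobase, with Lyve1 highest (51.7) and Pecam1, Tek and Esam at the lowest value, and its median without these 3 of 7 genes was 21.0. The mast cell list, relevant to Kit, had 0.172 CPM per kilobase, with Cpa3 highest (5.45). Fcer1a sat at the lowest value, and the median without it was 0.373. Ms4a2 had the least per kilobase (0.0678), but at 0.191 CPM it was listed above Fcer1a, and its exons are longer. The median was that of Mcpt4, listed at 0.190 CPM, most of which is the lowest value. With the lowest value subtracted, Mcpt4 had 0.0342 CPM per kilobase, against a median of 0.136 for the members. The order of this list and the members is therefore not read.

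The B lymphoid list (0.149 CPM per kilobase, led by Vpreb1 with 3.94, with Ebf1 lowest at 0.0182) and the T lymphoid list (0.119) lay below the members. No T lymphoid gene lay above 1 CPM, from Cd3e with 0.0435 to Cd3g with 0.171 CPM per kilobase, and Trbc1 was not matched to a row. How much of each member's level came from HSPCs and how much from these other cells was not tested.

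**Figure D4:**
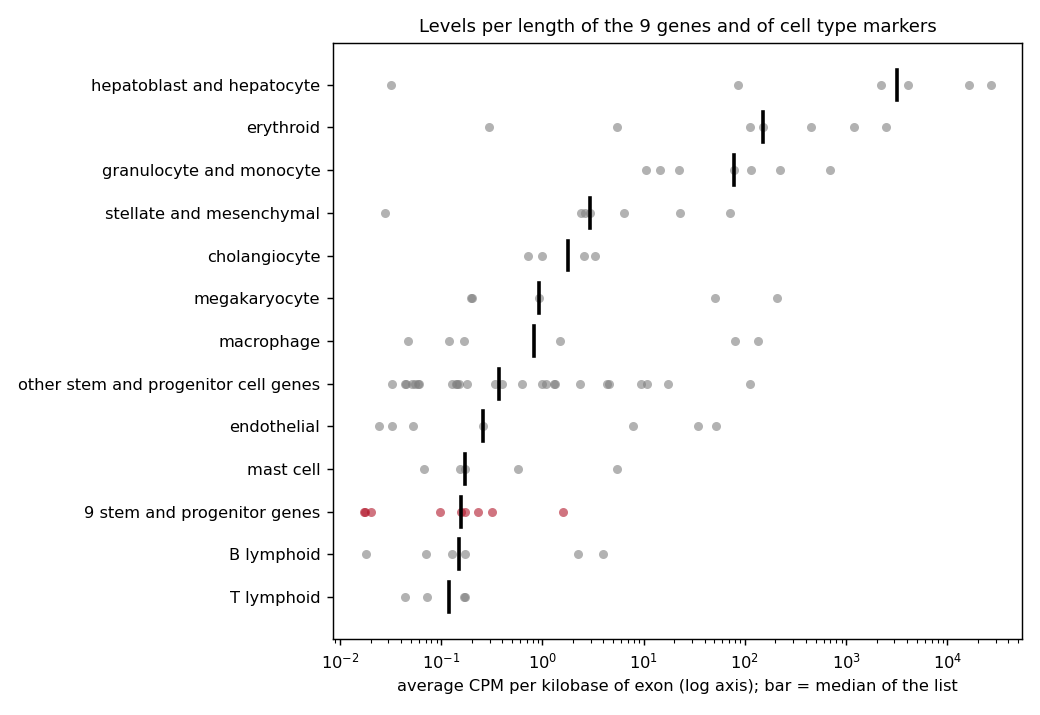
Each row is a list of genes, each point a gene and each black bar the median of its list, on a logarithmic axis of average CPM per kilobase of exon. The 9 stem and progenitor genes are in red, with a median of 0.156, far below the hepatocyte list (3153). Their row lies between the mast cell list (0.172) and the B lymphoid list (0.149). The mast cell median is mostly the lowest value of the table divided by a length, so its order with the members is not read.

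The promoters of the members were described from RefSeq windows of the same build (GRCm38.p6), taking the 250 bases before each annotated start. The 9 genes had 12 windows, 2 each for Kit, Mecom and Runx1. In 6 of the 12 the ratio of observed to expected CpG was 0.6 or more, against 34.0% of all 32851 windows. These belonged to Hlf, Kit, Mecom, Myb and Runx1. They include both windows of Kit, which overlap and had ratios of 0.601 and 0.631, close to the threshold. The upstream window of Runx1, at its distal start, had a ratio of 0.165 and the proximal one 0.978. For Mecom the ratios were 1.05 at the start nearer the 5′ end of the gene and 0.506 at the internal start. The level of a gene is given once for all of its starts, so these windows cannot be tied to separate values.

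Short motifs of blood factors were searched on both strands as exact letters. The ETS letters CGGAAG were found in windows of Mecom, Meis1 and Procr and in 13.6% of all windows. The letters TGTGGT, bound by RUNX proteins, were found in the Meis1 window and in 14.0% of all windows, CAGTTG, bound by MYB, in a Runx1 window and in 11.1%, and TGACAG, bound by MEIS proteins, in a Mecom window and in 15.9%. The GATA letters AGATAA and the TATA box letters TATAAA were in none of the 12 windows, against 9.99% and 12.4% of all. The E-box letters CAGCTG were in the Procr window and in 13.0% of all. The GC box letters GGGCGG were in 5 windows, of Hlf, Kit, Mecom and Myb, and in 32.7% of all, and CCAAT was in 4 windows, of Mecom, Meis1 and Runx1, and in 33.8%. Windows that overlap, as both of Kit do, share their letters.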

How the data were processed

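Whole-liver polyA RNA of 6 Control and 6 HFD male fetuses was sequenced. The authors aligned reads to mm10 with Subread 1.3.6-p1 and compared the diets with edgeR, and cutadapt 1.2.1 stands in the submitters' processing notes. The tool that counted reads and its transcript set are not given in the sources used here. The authors deposited 1 table with an average log2 CPM per gene, which was used, and their own diet comparison (log2 fold change, signed fold change, p-values and adjusted p-values with a common and a tagwise dispersion), which was not. The diet comparison was not analysed here.

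Levels were read as CPM and divided by the exon length of GENCODE M21 genes (GRCm38, the build of mm10), to which 21069 rows matched by symbol. Named were all 9 members, their listed ligands, partners and paralogs, and the highest and lowest gene of each list. Some listed genes are not reported here and were left out of every list and count. Other genes were named after their values were seen. Members and lists were chosen with earlier results of these data known. Values have no replicate error. The counting of motifs and transcript bases was tested on simulated data. Python 3.11.15, numpy 2.4.6 and pandas 2.3.3 were used.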

Additional observations from a re-analysis of the deposited data

How the results depend on the processing

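The 5 members above 1 CPM were also 5 above 0.5 CPM, but 2 lay above 2 CPM and 0 above 10 CPM. The median member level of 0.156 CPM per kilobase became 0.241 with the longest transcript, 0.995 with the coding length and 2.70 with bases in exactly 1 curated transcript, and 0.136 with the lowest value subtracted. The length by bases in exactly 1 curated transcript was chosen after the data were seen, and each of the 3 other lengths divides by fewer bases. With bases in exactly 1 curated transcript, Kit had 3.11, almost all of it the lowest value divided by 51 bases. The median of 2.70 depends on the place of Kit and is not read as a level of the members. The median percentile of 49.9 was 68.0 among all rows and 14.0 for the members above 1 CPM among rows above it. Members were higher in 2 of 11 pairs with a ligand or partner, and in 1 with the longest transcript, 3 with the coding length and 3 with bases in exactly 1 curated transcript. They were higher in 7 of 19 pairs with a paralog, and in 8, 9 and 10 with these lengths. Both sets of counts include pairs of Procr, Runx1, Mecom and Kit, whose values are mostly the lowest value divided by a length. The counts are therefore not read as a result about the members. Of the 12 other lists, 10 had a median above that of the members, and 8 to 10 under the alternatives. Subtracting the lowest value was not among the alternatives for the lists. At exon length the 10 include the mast cell list, whose median is mostly the lowest value. With a CpG ratio of 0.75 in place of 0.6, 4 of the 12 windows passed, and 22.9% of all windows. Values with no replicate were counted as moved past 1.5-fold or 5 percentile points. No paired analysis was possible because the value used is 1 average per gene over all livers. For the same reason the tests between diets and leaving out each liver were not run. The values of the members under 1 CPM are mostly the lowest value of the table, and the reads per liver behind them are unknown.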

Other observations

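Across the table, the share of genes above 16 CPM differed with transcript structure. Of protein coding genes with 1 curated RefSeq transcript, 29.2% of 10977 lay above 16 CPM, against 15.5% of 3569 with 2, 12.7% of 1711 with 3, 9.33% of 922 with 4 and 10.0% of 1185 with 5 or more. Above 1 CPM the shares in the same order differed less, with 48.5%, 42.8%, 38.2%, 38.0% and 40.4%. At the lowest value they were 24.8%, 18.9%, 18.5%, 17.2% and 17.2%, highest with 1 curated transcript. By the percentage of linked exon bases held by exactly 1 transcript, the share above 16 CPM was 3.78% of 1746 genes under 10%, 5.38% of 967 genes from 10 to 20%, 8.51% of 1468 genes from 20 to 50%, 16.1% of 1069 genes from 50 to 100% and 24.8% of 15478 genes at 100%. Above 1 CPM, the threshold used for the members, the shares of these 5 classes were 26.9%, 33.3%, 40.0%, 48.6% and 44.1%, so the last class lay below the one before it. The median log2 CPM of the last class (-0.95) was also below that of the class from 50 to 100% (-0.23) and of that from 20 to 50% (-0.85). The shares at the lowest value fell over the first 4 classes, from 24.9% to 21.6%, 16.8% and 13.9%, and were 26.0% at 100%. Genes are not independent replicates, and these are descriptions with no test. Kit, Cd34 and Meis1 belong to the class under 10%, Myb and Runx1 to that from 20 to 50% and the other 4 members to that at 100%, and none of the 9 lay above 16 CPM. The class at 100% also holds genes with several curated transcripts of which only 1 was linked, as for Mecom, so it is not limited to genes without shared sequence.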
